A study of Mus musculus with 4 samples.

Results

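Tuft cells are rare chemosensory cells of mucosal epithelia, and Avil and Sh2d6 are among the genes by which they are recognised. This account covers 10 genes known from tuft cells, Avil, Sh2d6, Pou2f3, Trpm5, Gfi1b, Il25, Il17rb, Dclk1, Alox5ap and Hpgds, out of 39056 genes counted in 4 RNA-sequencing libraries. They were taken by symbol from the table of read counts, and all 10 were in it. The set was chosen by the measured read counts of Avil and Sh2d6, which stood high in 2 of the libraries and far lower in the other two, so those levels and the differences at 8 and 16 h against no LPS are given as a description. The question was whether the rest of the tuft cell program was present beside them.

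The study gave lipopolysaccharide (LPS, a bacterial endotoxin) at 10 mg/kg into the peritoneum of S1PR1-GFP mice, in which a green fluorescent protein reports the sphingosine-1-phosphate receptor S1PR1. Lung cells positive for the reporter and for CD31 and negative for CD45 were sorted, which the labels call S1PR1+ endothelial cells. There was 1 library each for mice without LPS and for LPS at 8, 16 and 20 h, with no replicate of any, and all carried the reporter. The labels give no age or strain and do not say how many mice a library holds.

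The libraries held 27566454 to 28905776 reads, and 11803 genes reached 1 CPM (1 read in 1000000 of the scaled library total) in at least 1 of them. Their transcripts went against the label. Of 10 endothelial genes, 9 stayed below 1 CPM in every library, Erg, Emcn and Cldn5 had 0 reads throughout, and Pecam1, which encodes CD31, had 7, 2, 2 and 1 reads at no LPS, 8, 16 and 20 h. S1pr1 had 27, 87, 79 and 29 reads in that order. Of 12 mesenchymal genes 7 were measured, with Prrx1 between 209 and 213 CPM and Vim between 2358 and 2871 CPM. Pdgfra lay between 31.3 and 34.4 CPM, and Twist1 and Twist2 were also measured. Col3a1 and Dcn were called lower at 8 and 16 h, where 4.13% and 4.09% of all measured genes were. Pdgfrb and Tbx5 stayed below 1 CPM, Col1a1 had at most 4 reads, and Col1a2 and Thy1 had at most 1. Times below are therefore the labels of columns. A gene was called higher or lower by size alone (the rule of size), where its fold reached 2, the 95% counting interval around that fold left out 1 and its larger level was 1 CPM or more. Of the possible comparisons 5 were made, namely 8, 16 and 20 h against no LPS, 16 h against 8 h and 20 h against 16 h. With 1 library per label no test of a difference was possible, and every interval covers counting error alone.

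In the tissues that have them, tuft cells depend on the transcription factor POU2F3. They detect microbial metabolites and other luminal signals through G protein-coupled receptors, phospholipase C, the IP3 receptor and the cation channel TRPM5. They release interleukin 25, which acts on type 2 innate lymphoid cells, and make leukotrienes, prostaglandin D2 and acetylcholine. Their apical tuft of microvilli is built on actin bundles with villin-family proteins. In mouse they sit in the airway epithelium, and they appear in the alveolar region after severe injury. Advillin is also a protein of sensory neurons.

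Windows at the RefSeq start sites of the 2 abundant genes are shown first, because the set was chosen by these genes. The start used for Sh2d6, 72520036, lies inside the gene span given for it below, which reaches 72521707 on the minus strand. Both sequences are RefSeq windows of build GRCm38.p6, running from 250 bases before to 50 bases after the annotated start site. That of Avil is chr10:127000459-127000758 on the plus strand, and that of Sh2d6 is chr6:72519987-72520286 on the minus strand. Capitals mark stretches that differ by 1 letter from the octamer ATGCAAAT, the element that POU factors bind.
Avil: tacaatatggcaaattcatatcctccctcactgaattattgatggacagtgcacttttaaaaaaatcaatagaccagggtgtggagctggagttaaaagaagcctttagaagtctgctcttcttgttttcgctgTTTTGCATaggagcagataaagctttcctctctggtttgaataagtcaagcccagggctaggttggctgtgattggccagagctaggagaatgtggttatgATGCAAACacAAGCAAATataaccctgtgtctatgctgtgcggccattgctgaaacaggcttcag
Sh2d6: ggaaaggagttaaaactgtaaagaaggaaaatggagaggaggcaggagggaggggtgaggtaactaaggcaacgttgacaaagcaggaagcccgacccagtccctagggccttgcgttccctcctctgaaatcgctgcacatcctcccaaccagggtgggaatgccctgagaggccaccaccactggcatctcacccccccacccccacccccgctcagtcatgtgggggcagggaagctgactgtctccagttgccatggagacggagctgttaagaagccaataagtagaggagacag

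Neither window held an exact ATGCAAAT, nor the AP-1 motif TGANTCA or the TATA box TATAAA, on either strand. The Avil window held 3 octamer-like stretches, with first bases 116, 15 and 5 bases before the start site, and the Sh2d6 window held none. Stretches with at most 1 letter different occurred in 18.6% of 32851 promoter windows, and the exact octamer in 1.74%. Of the 10 members, 7 had a window. The exact octamer was found in that of Hpgds, whose transcript was close to absent here, 174 bases before its RefSeq start site, 65144730. In the GENCODE annotation the gene reaches 65144908, so this octamer lies inside it. The stretch around it is chr6:65144886-65144915 on the minus strand, with the octamer in capitals.
Hpgds: ctttactctttATGCAAATacgttggacta
Gfi1b held 1 octamer-like stretch, 116 bases before its start. AP-1 motifs, present in 7.81% of all windows, were found 104 bases before the start of Il17rb and 59 and 20 bases before a downstream start of Dclk1. The TATA box motif, in 13.6% of all windows, was in no member's window. These matches describe letters in a window and were not tied to any measurement of binding. The search for stretches with 1 letter different was added after the sequences had been seen.

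Avil encodes advillin, an actin-binding protein of the villin and gelsolin family (mm10 chromosome 10, 127000709 to 127020994, plus strand, protein coding). It had 3652 (no LPS), 651 (8 h), 648 (16 h) and 3444 (20 h) reads, or 129, 22.7, 23.4 and 124 CPM. The no LPS and 20 h libraries were high and the 8 and 16 h libraries low, with little difference within either pair. Avil was 5.70-fold lower at 8 h (95% counting interval 5.24 to 6.20) and 5.52-fold lower at 16 h (5.08 to 6.02) than with no LPS. In these bulk libraries fewer expressing cells and less RNA per cell cannot be told apart.

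Sh2d6 encodes a cytoplasmic protein with an SH2 domain, the module that binds phosphorylated tyrosine (chromosome 6, 72513641 to 72521707, minus strand, protein coding). It had 8103 (no LPS), 1008 (8 h), 987 (16 h) and 7247 (20 h) reads, or 287, 35.1, 35.6 and 262 CPM. The libraries fell into the same high and low pairs as for Avil. Sh2d6 was 8.17-fold lower at 8 h (7.65 to 8.73) and 8.05-fold lower at 16 h (7.53 to 8.61) than with no LPS. Among 247 genes called lower at 8 h whose larger count was 100 reads or more, Sh2d6 ranked 9 and Avil 19 by log2 ratio. By CPM lost they ranked 7 and 14 of 487. At 16 h Sh2d6 ranked 7 and Avil 22 of 241 by log2 ratio. Both genes were picked for these differences, so the ranks are a description.

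Both genes stood far above the level of trace transcripts. On a scale that corrects for gene length (TPM, from the summed exon length), Sh2d6 was at 707 TPM with no LPS, above 98.8% of the genes that reached 1 CPM, and at 637 TPM at 20 h. At 8 and 16 h it was at 85.9 and 87.0 TPM, still above 77.2% and 77.4% of them. Avil was at 159 TPM with no LPS and 151 at 20 h, above 89.7% and 89.0% of these genes. At 8 and 16 h it was at 27.6 and 28.4 TPM, above 45.9% and 46.6%. The identifier of Sh2d6 in the counts carries an earlier version than the annotation used for lengths, so its exon length of 1690 bases may differ from the counted model.

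The levels of Avil and Sh2d6 in the column labelled 20 h were near those of the no LPS library. Avil was 5.32-fold higher at 20 h than at 16 h (4.89 to 5.79), and Sh2d6 was 7.35-fold higher (6.87 to 7.86). Against no LPS, Avil at 20 h was 1.04-fold lower (0.991 to 1.09) and Sh2d6 1.10-fold lower (1.06 to 1.13), neither of which met the rule of size. The interval for Sh2d6 excluded 1 on counting error. Between 8 and 16 h the folds were 1.03 for Avil (0.924 to 1.15) and 1.01 for Sh2d6 (0.928 to 1.11). Comparisons with no LPS share that library, and 16 h serves in several of them, so they are not independent.

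The ratio of reads between the 2 genes differed among the libraries. There were 2.22 reads of Sh2d6 per read of Avil with no LPS (2.13 to 2.31) and 2.10 at 20 h (2.02 to 2.19). The ratio was 1.55 at 8 h (1.40 to 1.71) and 1.52 at 16 h (1.38 to 1.68). The lower ratio at 8 and 16 h follows from the larger fold of Sh2d6. It is made of the same differences for which both genes were picked, so it is a description. Its intervals cover counting error alone and cannot show a departure from proportion between conditions.

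**Figure D1:**
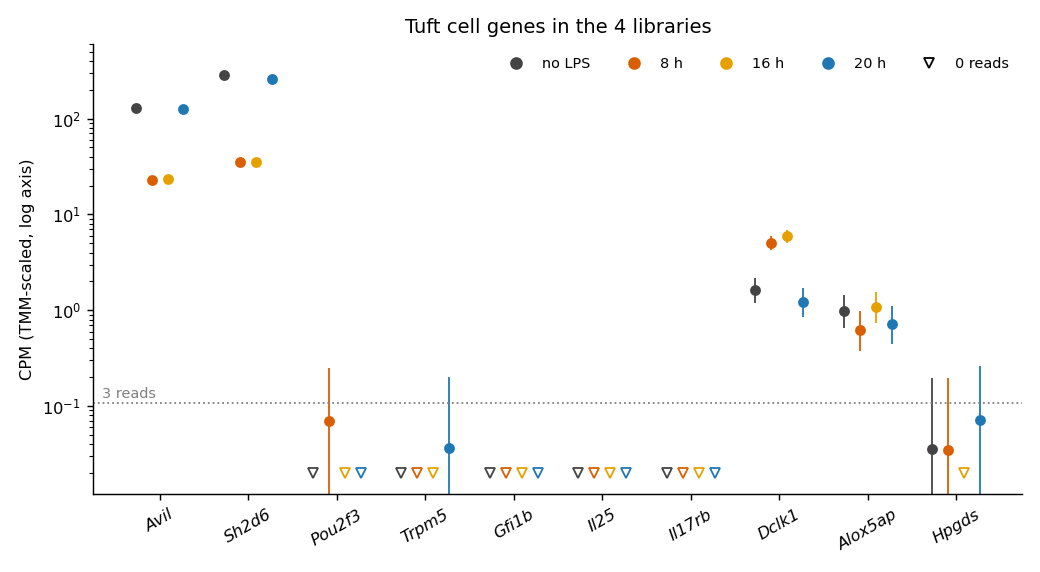
Level of each of the 10 tuft cell genes in each library, in CPM on a log axis, with the exact Poisson 95% interval of the count; open triangles mark 0 reads and the dotted line the level of 3 reads. Avil and Sh2d6 lie between 22.7 and 287 CPM, Dclk1 and Alox5ap between 0.627 and 5.88 CPM, and the other 6 genes at or below 2 reads.

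The transcription factors of tuft cells among the members were at or near 0 reads. Pou2f3, the factor on which tuft cells depend, had 0, 2, 0 and 0 reads at no LPS, 8, 16 and 20 h. Gfi1b, a zinc-finger repressor of tuft cells and of the erythroid and megakaryocyte lineages, had 0 reads in every library. Counts of up to 3 reads, or 0.104 to 0.108 CPM depending on the library, were treated as not distinct from 0. The upper end of the exact Poisson interval of a count of 0, as drawn for each level, is 0.128 to 0.133 CPM. Sh2d6 thus lay at 287 and 262 CPM in libraries where the factor that defines tuft cells had 0 reads.

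Trpm5, the calcium-activated cation channel at the end of the taste-like cascade, had 1 read at 20 h and 0 in the other libraries. Il25, the alarm cytokine of tuft cells, and Il17rb, a subunit of its receptor, had 0 reads in all 4 libraries. Hpgds, which encodes the haematopoietic prostaglandin D synthase, had 1, 1, 0 and 2 reads in the order no LPS, 8, 16 and 20 h. These 4 genes and both factors make 6 members with at most 3 reads in every library, and no fold is given for them.

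Alox5ap, which encodes the 5-lipoxygenase activating protein needed for leukotriene synthesis, had 28, 18, 30 and 20 reads at no LPS, 8, 16 and 20 h. That is 0.991, 0.627, 1.08 and 0.722 CPM, so it passed 1 CPM at 16 h alone. Its fold against no LPS was 0.633 at 8 h (0.330 to 1.19), 1.09 at 16 h (0.631 to 1.90) and 0.729 at 20 h (0.389 to 1.34), and it was called in none of the 5 comparisons.

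Dclk1, a microtubule-associated kinase gene widely used as a tuft cell marker, went the opposite way to Avil and Sh2d6. It had 46 (no LPS), 145 (8 h), 163 (16 h) and 34 (20 h) reads, or 1.63, 5.05, 5.88 and 1.23 CPM. The 8 and 16 h libraries were thus the high pair. Dclk1 was 3.10-fold higher at 8 h (2.21 to 4.42) and 3.61-fold higher at 16 h (2.59 to 5.13) than with no LPS, and 4.79-fold lower at 20 h than at 16 h (3.30 to 7.15). Its calls at 8 and 16 h end where a fold of 4 or a level of 10 CPM is asked for. Per length Dclk1 was faint, at most 1.59 TPM over 15296 bases, the summed exons of all its transcripts. Its level would come out higher over a shorter transcript. Its relative Dclk2, at 614, 924, 940 and 590 reads, was called in none of them, and Dclk3 and Dcx had 0 reads throughout.

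Counted by the rule of size, 2 of the 10 members were lower at 8 h and 1 was higher. Of the measured genes, among them 4 of the 10 members, 4.13% were lower and 4.19% higher (8.31% in all). At 16 h the same counts were 2 and 1, against 4.09% and 4.13% (8.23% in all). At 20 h against no LPS no member was called, and 0.102% of genes were lower and 0.551% higher (0.652% in all). Between 8 and 16 h no member was called, and 0.0763% of genes were lower and 0.161% higher (0.237% in all). From 16 to 20 h, 2 members were higher and 1 lower, against 4.63% and 3.85% (8.47% in all). Since Avil and Sh2d6 were chosen for their differences at 8 and 16 h, these counts say nothing about tuft genes as a class. The 4 members that reached 1 CPM are not a sample of the 10.

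The wider program was read from 8 groups of tuft cell genes with 73 distinct genes, of which 63 are not among the members. Of those 63, 27 reached 1 CPM in at least 1 library, 36 did not, and 10 had 0 reads in all 4. At 8 h, 3 of the 27 were higher and 1 lower (11.1% and 3.70%, against 4.19% and 4.13% of all measured genes). At 16 h 4 were higher and 1 lower (14.8% and 3.70%, against 4.13% and 4.09%). Their median log2 ratio was 0.23 at 8 h and 0.30 at 16 h, against 0.00 and 0.01 over all measured genes. None of the 27 was called at 20 h against no LPS or between 8 and 16 h, and from 16 to 20 h 2 were higher and 4 lower (7.41% and 14.8%, against 4.63% and 3.85%).

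Among 8 tuft cell transcription factor genes, 2 reached 1 CPM. Sox9, a factor of many progenitor and cartilage cells, had 429, 787, 833 and 581 reads at no LPS, 8, 16 and 20 h, and Nfatc1, a calcium-responsive factor, had 870, 760, 771 and 836. Neither was called in any of the 5 comparisons. In these 0.237% to 8.47% of all measured genes were called, so no call among 2 genes is near these shares. Ascl2 had 0 reads throughout, Spib at most 3 and Hmx3 at most 3, while Hmx2 had 14, 17, 19 and 7.

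The taste-like cascade was represented by 2 of 13 genes. Itpr3, the IP3 receptor gene that serves this cascade and is also used by many other cells, stood at 259, 351, 350 and 258 CPM and was not called. Tas1r3, a subunit of the sweet and umami taste receptors, had 55 (no LPS), 11 (8 h), 11 (16 h) and 56 (20 h) reads, a pattern with the same high and low pairs as Avil. It was 5.08-fold lower at 8 h (2.63 to 10.8) and 4.90-fold lower at 16 h (2.54 to 10.4) than with no LPS. The tuft cell G protein genes Gnat3 and Gng13 had at most 1 read, Gnb3 had at most 8, and the phospholipase gene Plcb2 had 10 to 14. Rgs13, Rgs21 and Ffar3 had 0 reads throughout.

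Eicosanoid genes were the group with the most reads, but the abundant ones are general enzymes. Ptgs2, the inducible cyclooxygenase gene, stood at 2240, 1593, 1563 and 2077 CPM at no LPS, 8, 16 and 20 h. Ptgs1, Pla2g4a and Ptges, which encode the other cyclooxygenase, a phospholipase A2 and a prostaglandin E synthase, lay between 209 and 411 CPM. None of the 6 measured genes was called in any of the 5 comparisons. Of all measured genes 0.237% to 8.47% were called in them, so no call among 6 genes is near these shares. The genes on the leukotriene branch were low, with Alox5 at 6 to 12 reads and Ltc4s at 26 to 33 reads.

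Cytokine and receptor genes of the group gave 3 of 6 above 1 CPM, all receptors. Il17ra lay between 52.6 and 64.9 CPM, Il4ra between 18.2 and 26.8 CPM and Il13ra1 between 4.32 and 6.50 CPM, and none was called. Tslp had at most 6 reads. In the wider list of IL-17 ligands and receptors 4 of 11 were measured, and the cytokine gene Il17f was lower at 8 h, 13.4-fold (6.84 to 30.1), on 9 reads against 119, and 7.29-fold lower at 16 h on 16 reads (4.31 to 13.2). It had 94 reads at 20 h. Acetylcholine genes were at or near 0, with 0 of 4 measured, Chat and Slc18a3 at 0 reads and Ache at no more than 6.

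**Figure D2:**
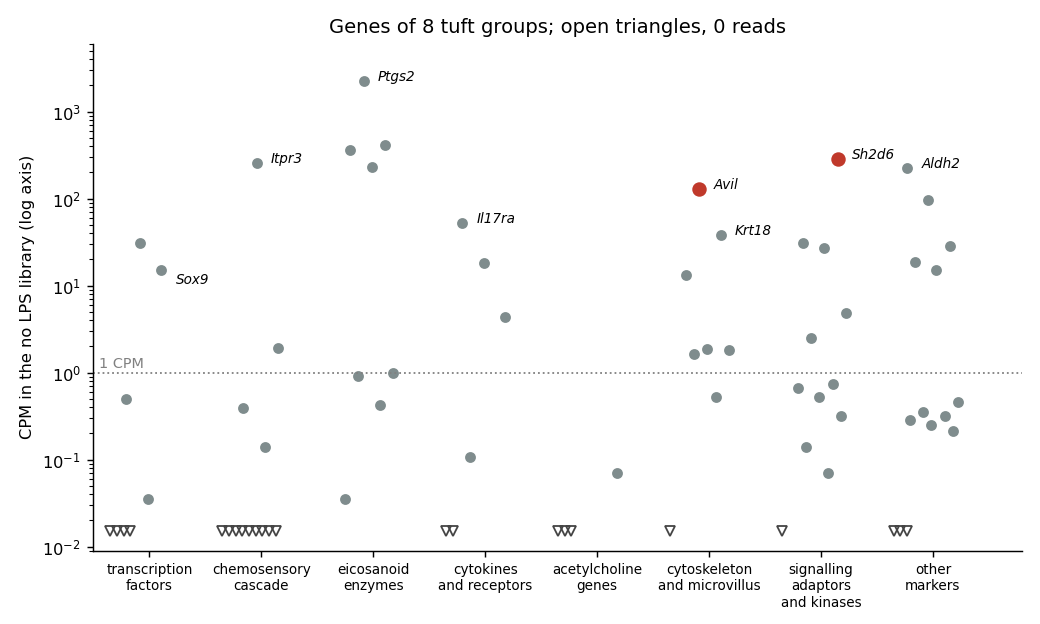
Each point is a gene of the 8 tuft groups at its level in the library labelled no LPS, in CPM on a log axis; open triangles are genes with 0 reads there and the dotted line is 1 CPM. Avil (red) is at 129 CPM in the cytoskeletal group, of which 7 of 8 genes were measured, and Sh2d6 (red) is at 287 CPM in the signalling group, of which 6 of 12 were. Of 13 chemosensory genes 11, and all 4 acetylcholine genes, lie below 1 CPM.

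Cytoskeletal and microvillus genes were the exception in number, with 7 of 8 measured. At 8 h 4 of the 7 were called higher, Dclk1 among them, and Avil alone lower, where 4.19% and 4.13% of all measured genes were. Krt18 and Krt8, keratins of simple epithelia, had 1078, 2606, 2570 and 1045 reads and 371, 936, 900 and 391 reads at no LPS, 8, 16 and 20 h. At 8 h they were 2.38-fold (2.22 to 2.56) and 2.48-fold (2.20 to 2.81) higher than with no LPS. Pls1, an actin-bundling gene of microvilli, had 15, 108, 132 and 25 reads and was 7.09-fold higher at 8 h (4.11 to 13.1). Fyb, an adaptor gene of blood cells and tuft cells, had 52, 103, 114 and 40 reads and was 2.24-fold higher at 16 h (1.60 to 3.17). Espn, another bundling gene, had 53, 28, 34 and 78 reads and was called higher between 16 and 20 h, 2.30-fold (1.52 to 3.54). Vil1, the villin of tuft and absorptive cells, had 1 read at 20 h and 0 elsewhere.

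Signalling adaptors and kinases were sparse apart from Sh2d6, with 6 of 12 measured and no other call. Inpp5d and Skap2 lay between 25.3 and 37.6 CPM, and Ptpn6 and Pik3r5 between 2.35 and 5.06 CPM. Sh2d7, another gene of this group, had 0 reads throughout. Matk, a kinase gene, had 19, 0, 2 and 26 reads, with the same high and low pairs as Avil, but stayed below 1 CPM and could not be called. Of 14 other tuft markers 5 were measured, Aldh2, Reep5, Tmem176a, Tmem176b and Mctp1, and none was called. With 0.237% to 8.47% of all measured genes called in the 5 comparisons, no call among 5 genes is near these shares. Among the 27 measured tuft genes outside the member list, Tas1r3 was thus the one called lower at 8 and 16 h.

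**Figure D3:**
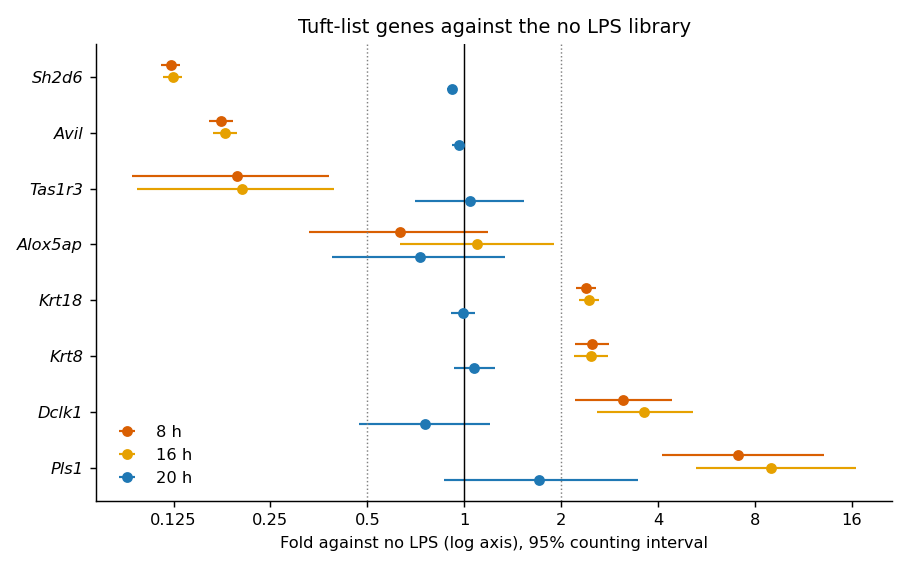
Fold against the no LPS library of 8 genes of the tuft lists at 8, 16 and 20 h, on a log axis with 95% counting intervals; dotted lines mark folds of 0.5 and 2, and the genes were chosen after their values were seen. Sh2d6, Avil and Tas1r3 lie left of 0.5 at 8 and 16 h, Krt18, Krt8, Dclk1 and Pls1 lie right of 2, and at 20 h all 8 lie between the dotted lines.

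Within their protein families Avil and Sh2d6 were not alike in company. Of 8 gelsolin and villin family genes 6 were measured. At 8 h Gsn and Vill were called higher and Avil, by which the set was chosen, lower. Of all measured genes 4.19% were higher and 4.13% lower at that time. At 16 h Gsn alone was called higher and Avil alone lower, where 4.13% and 4.09% of all measured genes were. Gsn, the gelsolin gene, was at 101, 281, 280 and 94.2 TPM and 2.81-fold higher at 8 h (2.67 to 2.95). Capg, at 509 to 658 TPM, had the highest level of the family in every library, and Flii (134 to 172 TPM) and Svil (31.4 to 35.6 TPM) were called in none of the 5 comparisons. With no LPS, Avil at 159 TPM stood above Flii at 134 TPM and below Capg, and at 8 h Avil at 27.6 TPM stood below Svil at 34.5 TPM. Scin and Vil1 were below 1 CPM.

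Sh2d6 was the sole abundant gene among the SLP-type adaptors, which assemble signalling complexes behind antigen receptors. Blnk had 43, 71, 62 and 41 reads, Lcp2 had 10, 15, 10 and 12, and Clnk had 0 throughout. Per length Blnk was at most 1.71 TPM, against 85.9 TPM for Sh2d6 in its lowest library. Blnk was called in none of the 5 comparisons.

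**Figure D4:**
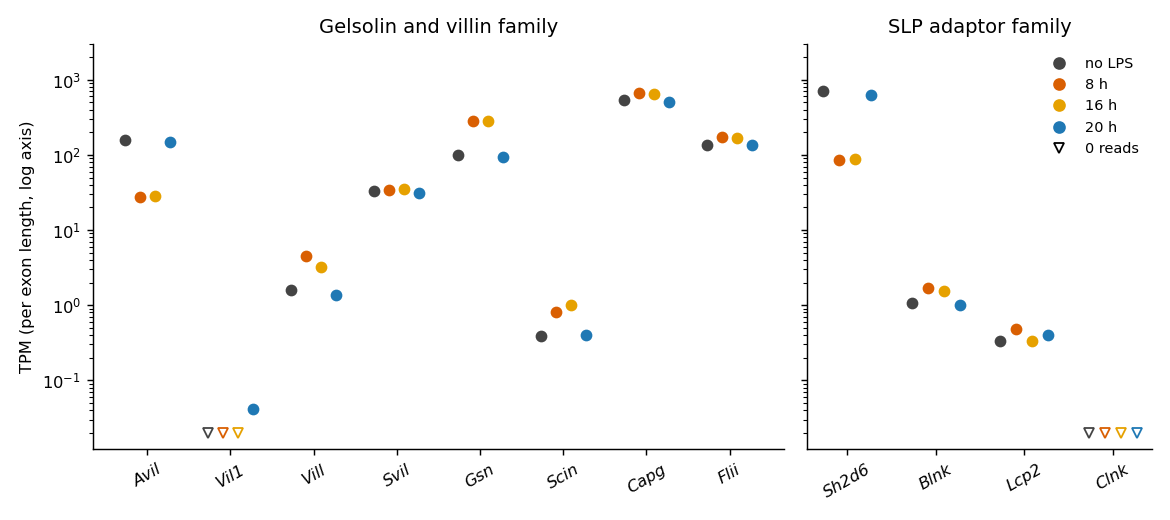
Levels per exon length (TPM, log axis) of the gelsolin and villin family and of the SLP adaptor family in the 4 libraries; open triangles mark 0 reads. Avil and Sh2d6 are low at 8 and 16 h, Gsn is high there, and Sh2d6 lies above 80 TPM in every library while its relatives lie below 2 TPM.

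How the counting treated strand was not stated, and without strand the reads of a gene and of one overlapping it on the opposite strand cannot be told apart. The 3′ part of Tsfm, a mitochondrial translation factor gene on the opposite strand, overlaps Avil and shares 165 exon bases with it. Tsfm had 1409, 1550, 1505 and 1602 reads at no LPS, 8, 16 and 20 h, and was called in none of the 5 comparisons. Ctdsp2, a phosphatase gene that ends 734 bases before Avil on the same strand, had 1326, 1750, 1669 and 1302 reads and was not called either. No annotated gene overlaps Sh2d6.

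Of 13 counted genes within 50 kb of Avil or Sh2d6, 11 reached 1 CPM. None was called against no LPS at 8, 16 or 20 h, where 8.31%, 8.23% and 0.652% of all measured genes were, so that with 11 genes a count of 0 is near these shares. The 8 of them with at least 100 reads had folds from 0.817 to 1.30 at 8 h and from 0.824 to 1.28 at 16 h. Near Avil these included Cdk4, a cell cycle kinase gene, at 14777, 13862, 12949 and 14205 reads. Near Sh2d6 they included Capg, at 9099, 11549, 10861 and 8667 reads, and Elmod3, at 352, 292, 299 and 321. Cyp27b1, which encodes the vitamin D 1-alpha hydroxylase, had 27, 20, 10 and 33 reads. It was 2.65-fold lower at 16 h than with no LPS (1.24 to 6.13), not called because its larger level was 0.955 CPM, and was called higher between 16 and 20 h, 3.30-fold (1.59 to 7.51). Overlaps on the opposite strand also exist for Trpm5, Il17rb, Dclk1 and Alox5ap.

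**Figure D5:**
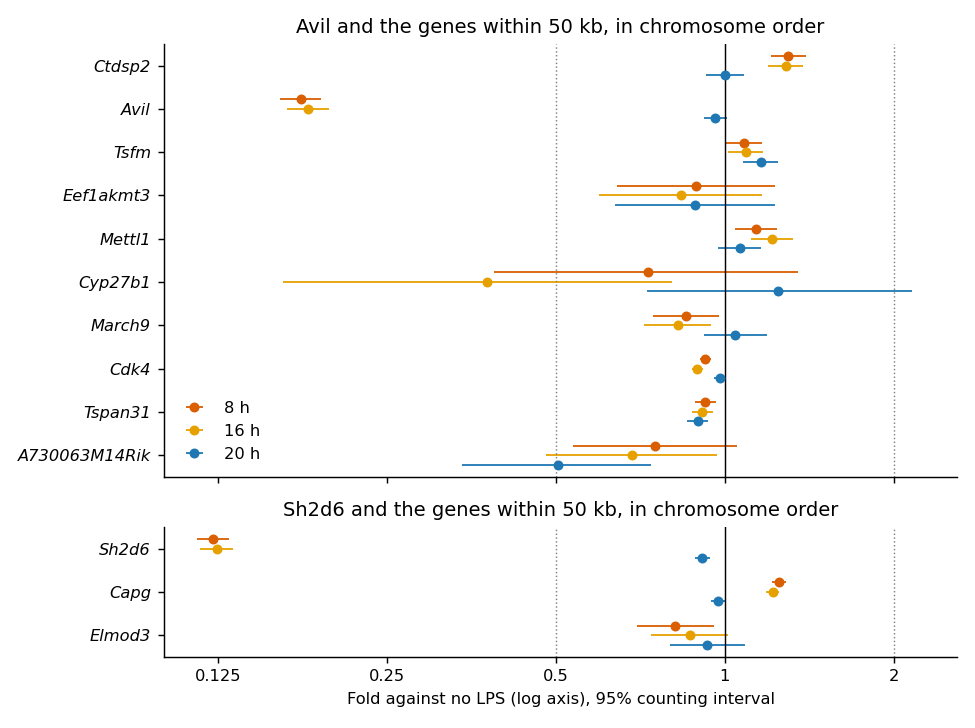
Fold against no LPS at 8, 16 and 20 h, on a log axis with 95% counting intervals, for Avil and Sh2d6 and for the genes within 50 kb with more than 10 reads at 8 h or no LPS, in chromosome order; dotted lines mark folds of 0.5 and 2. Avil and Sh2d6 lie below 0.2 at 8 and 16 h, and the neighbours with at least 100 reads lie between 0.817 and 1.30 at those times.

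Markers of the cells in which Avil, Sh2d6 or the other members are known were read in the same libraries. Of 10 lung epithelial genes 1 was measured, Krt19 at 59 to 83 reads. Epcam had at most 3 reads, Cdh1 at most 5, and Sftpb and Nkx2-1 0 throughout. The summed level of the list was 3.18, 3.38, 3.61 and 3.68 CPM at no LPS, 8, 16 and 20 h, most of it Krt19. Ager, a gene of alveolar type 1 cells, had 23, 5, 11 and 20 reads, high and low in the same libraries as Avil, and its 8 h count was 4.67-fold lower than with no LPS (1.74 to 15.7). It stayed below 1 CPM and could not be called.

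Sensory neurons express advillin, and 19 of 20 genes listed for them were matched, of which 7 were measured. The summed level was 64.0, 66.2, 68.0 and 62.5 CPM in the same order. P2rx3, an ATP-gated channel gene of these neurons, had 970, 158, 169 and 836 reads and was 6.24-fold lower at 8 h (5.27 to 7.43). The neuronal cytoskeletal genes Tubb3, Nefm and Prph moved the other way, with Tubb3 2.95-fold higher at 8 h (2.50 to 3.50). Isl1 had 153, 228, 205 and 171 reads, Nefl 215, 398, 356 and 258, and Pou4f1 24, 37, 30 and 39, in the same order. None of these was called in the 5 comparisons. At 8 h 3 of the 7 measured genes were higher and 1 lower, where 4.19% and 4.13% of all measured genes were. Ntrk2 and Elavl4 had 0 reads and Scn10a at most 1. The part of such cells in the levels of Avil was not tested.

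Mast cells and basophils, which express Hpgds and Alox5ap, were represented by Gata2 alone among 9 genes, and Kit, Cpa3, Mcpt4, Tpsb2, Fcer1a and Ms4a2 had 0 reads throughout. Their summed level was 31.5, 39.2, 38.9 and 37.1 CPM, nearly all of it Gata2. Of 9 megakaryocyte and erythroid genes, the setting of Gfi1b, 1 was measured, Itga2b at 94 to 128 reads, with Gata1 and Gp9 at 0 and a summed level of 4.01 to 4.91 CPM. Of 7 neuroendocrine genes 1 was measured, Uchl1, with Chga at 0 and a summed level of 7.15 to 10.7 CPM. The CD45 gene Ptprc counted 42, 37, 31 and 38 reads, and 5 of 10 leukocyte genes were measured, with a summed level between 25.2 and 30.03 CPM and Cd3e and Nkg7 at 0. Of the 5 measured, Adgre1 was called higher at 8 and 16 h and Csf1r at 16 h, while S100a8 was lower at both times. Of all measured genes 4.19% were higher and 4.13% lower at 8 h, and 4.13% and 4.09% at 16 h. Adgre1, at 12, 31, 77 and 24 reads, and Csf1r were also called higher at 16 h than at 8 h, where 0.161% of genes were. Adgre1 was called lower from 16 to 20 h, where 3.85% were. Most of the leukocyte sum was Lyz2, which was not called. It stood at 21.5, 23.0, 24.5 and 25.6 CPM at no LPS, 8, 16 and 20 h. The part of these cell types in the members' levels was not tested.

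The genes most like Avil and Sh2d6 were sought by the distance between their 3 log2 ratios against no LPS, over 4 libraries and 9946 other genes with at least 100 reads. Nearest to Avil were P2rx3 at a distance of 0.18, the complement regulator gene Cd46 at 0.22, the oviductal glycoprotein gene Ovgp1 at 0.32, the hyaluronan synthase gene Has3 at 0.34 and Cage1 at 0.36. Nearest to Sh2d6 were Otog, an inner ear matrix gene, at 0.21, the aquaglyceroporin gene Aqp9 at 0.35, Sec31b at 0.36, Rsph10b at 0.38 and Lcn2, which encodes an iron carrier-binding protein, at 0.39. None of these is in the tuft lists. Sh2d6 itself ranked 22 in likeness to Avil, and Avil ranked 14 in likeness to Sh2d6, at a distance of 0.76.

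The reads behind these ratios differed widely in level. Cd46 had 793, 134, 123 and 812 reads at no LPS, 8, 16 and 20 h, and Ovgp1 had 778, 117, 123 and 652. Lcn2 had 7057, 713, 742 and 6931 reads, close in level to Sh2d6, and Otog had 170, 18, 20 and 135. Being nearest in these ratios, they are high and low in the same libraries as Avil and Sh2d6 by choice. The measure rests on 4 libraries without replicates, on shared use of the no LPS library and on the 8 and 16 h differences for which Avil and Sh2d6 were picked.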

How the data were processed

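The authors deposited a table of unnormalized read counts by gene, a column for each of 4 libraries, made with STAR and featureCounts on mm10, per the submitters' processing notes. The sources used here do not give versions, annotation, strand or multi-mapping settings. Columns were matched to samples by title. Symbols, coordinates and exon lengths came from GENCODE M21 by gene identifier, with 38872 of 39056 identifiers (99.5%) matched. Counts were scaled with edgeR 4.0.16 TMM factors. Intervals are at 95%, from the exact binomial of Clopper and Pearson for a fold, given the summed reads, and exact Poisson for a level. Log2 ratios used a prior count of 2. Genes were called by size, without a test, as the report defines. The calls were checked on simulated counts with counting error alone and changes set in genes of higher level. That check cannot show variation between samples and does not cover changes in low genes. TPM used summed exon length. Reads carry no molecular identifiers. Members and lists were chosen with earlier results of these data known. Genes were named as members, as the 5 highest of each list above 1 CPM, as neighbours within 50 kb or as the 5 nearest in likeness. Model genes, clones and pseudogenes were skipped in likeness. Genes named beyond this rule were chosen after their values were seen. Promoter windows are RefSeq's, GRCm38.p6. The symbol Drgx matched no gene. The RefSeq starts of Sh2d6, 72520036, and of Hpgds, 65144730, lie inside the GENCODE genes. Alternatives were library size or DESeq2 1.42.0 scaling, other minimum levels, a fold of 4, a stricter interval, a prior count of 0.5 and shorter promoter windows.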

Additional observations from a re-analysis of the deposited data

How the results depend on the processing

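Scaling by library size or by DESeq2 size factors moved no count of called genes by over 1.5 times and no level or fold of Avil, Sh2d6, Dclk1 or Alox5ap beyond its counting interval. Called members went from 3 to 2 at 8 and 16 h with a minimum of 10 CPM or a fold of at least 4, and from 3 to 2 from 16 to 20 h with 10 CPM. In each case the call lost was that of Dclk1, which was the sole member called higher at 8 and 16 h. For all genes, in the order 8, 16 and 20 h against no LPS, 16 h against 8 h and 20 h against 16 h, a minimum of 10 CPM left 332, 332, 22, 0 and 357 called genes, and a fold of at least 4 left 187, 178, 9, 2 and 184. The main rule gave 981, 971, 77, 28 and 1000 in that order. Without a minimum level the counts became 1445, 1484, 216, 172 and 1496. With a stricter confidence level they were 40 at 20 h against no LPS and 4 between 8 and 16 h. Over the tuft groups, a minimum of 10 CPM left 4 called genes at 8 h, 4 at 16 h and 4 from 16 to 20 h, and a fold of at least 4 left 4, 4 and 5. Members with the octamer were 3 when 1 different letter was allowed, an alternative added after seeing the data. No paired analysis was possible because each group has 1 library. The depth limits the genes near 0 reads, where 3 reads or fewer cannot be told from absence, and no replicate shows how far any level varies between samples.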
